A study of Mus musculus with 21 samples.

Results

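The genes described here are Mccc2 and 8 further genes of branched-chain amino acid breakdown, 9 of the 22512 genes in the deposited table. Mccc2 was chosen from its values, because it was about 3-fold lower in both groups of Ago2-edited cells than in their controls. Mccc1, Bckdha, Bckdhb, Dbt, Bcat1, Bcat2, Ivd and Auh were chosen by their place in the pathway, to see whether the pathway moved with Mccc2. The levels of Mccc2 in the Ago2-edited groups are therefore given as a description with no test, and the other genes were tested. All 9 passed the filter on low counts in both experiments.

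Total RNA of mouse embryonic stem cells was sequenced in 21 libraries, 3 for each of 7 groups, in a study of how different RNA-silencing pathways meet at GW182/Tnrc6 proteins. Every group came from a 129S6/SvEvTac line with a GFP reporter that holds TRIM71 binding sites, stably expressing FLAG-Cas9 with a blasticidin resistance marker, and was grown in serum with LIF on gelatin. Experiment 1 held the parental line without transfection (W), Trim71-/- cells (Trim71KO) and Ago2-/- cells (Ago2KO). Experiment 2 held parental cells transfected with the plasmid pCIP FH-T6B_WT::mCherry (T6B_WT) or pCIP FH-T6B_MUT::mCherry (T6B_MUT), and the edited cells transfected with an empty plasmid (Trim71KO_empty and Ago2KO_empty). T6B is a peptide derived from a TNRC6 protein that binds Argonaute proteins, and the labels give T6B_MUT as its mutant form. AGO2 is an Argonaute, a protein that is guided by microRNAs to messenger RNAs, and TRIM71 is an RNA-binding protein of stem cells that represses messenger RNAs. Experiment 2 held no unedited cells with the empty plasmid, so its edited groups differ from T6B_MUT in genotype and in plasmid together. The labels do not say how many edited clones were used, so an edited group may stand for 1 clone.

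Leucine, isoleucine and valine are first transaminated, by BCAT1 in the cytosol or BCAT2 in mitochondria, and the resulting keto acids are then oxidised by the branched-chain keto acid dehydrogenase complex, whose parts are encoded by Bckdha, Bckdhb and Dbt. The leucine branch goes on through isovaleryl-CoA dehydrogenase (Ivd), through 3-methylcrotonyl-CoA carboxylase, a biotin enzyme built of an alpha subunit (Mccc1) and a beta subunit (Mccc2), and through a hydratase (Auh) to HMG-CoA. The enzyme works only as a complex of its subunits, and loss of either subunit in people causes the same inborn error of leucine breakdown.

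Library totals ran from 29561125 to 50826201 counts in Experiment 1 and from 33910145 to 57872324 counts in Experiment 2. Ago2 was at 134 to 153 CPM (counts scaled to library size) in W and at 39.8 to 43.6 CPM in Ago2KO. The libraries labelled Ago2KO_empty did not share a low Ago2 level: replicates 1, 2 and 3 held 87.4, 167 and 45.6 CPM, against 112 to 143 CPM in T6B_MUT, so the differences in Ago2KO_empty of the pathway genes, and those called of the genes named from the wider list, are also given without replicate 2. Trim71 was at 602 to 618 CPM in W and 412 to 459 CPM in Trim71KO, and at 482 to 503 CPM in T6B_MUT and 393 to 409 CPM in Trim71KO_empty. Summed CPM of 7 embryonic stem cell markers was 3383 to 4615 in all libraries, and was highest in the Trim71-edited groups. It was 3558 to 3816 in W, 3773 to 3916 in Ago2KO and 4231 to 4615 in Trim71KO. In Experiment 2 it was 3610 to 3732.5 in T6B_MUT, 3581 to 3753 in T6B_WT, 4212 to 4426 in Trim71KO_empty and 3383 to 3732 in Ago2KO_empty. The sum of 8 primitive endoderm markers differed between groups, with 51.5 to 52.6 CPM in W, 12.5 to 14.5 in Ago2KO, 6.95 to 7.30 in Trim71KO, 31.3 to 31.8 in T6B_MUT, 25.3 to 28.5 in T6B_WT, 10.7 to 12.5 in Trim71KO_empty and 18.7 to 27.9 in Ago2KO_empty. The sum of 6 markers of 2-cell-like cells also differed, with 11.3 to 12.8 CPM in W, 2.51 to 3.04 in Ago2KO, 0.778 to 1.36 in Trim71KO, 15.3 to 16.6 in T6B_MUT, 73.5 to 75.5 in T6B_WT, 16.1 to 17.1 in Trim71KO_empty and 53.0 to 64.3 in Ago2KO_empty. Of 6 fibroblast markers 3 were in the table, with a sum of 2.73 to 11.6 CPM. This sum was 7.15 to 7.68 CPM in W, 7.20 to 7.82 in Ago2KO and 10.5 to 11.6 in Trim71KO. In Experiment 2 it was 4.04 to 4.68 CPM in T6B_MUT, 2.73 to 3.43 in T6B_WT, 8.79 to 9.38 in Trim71KO_empty and 4.36 to 5.26 in Ago2KO_empty. The part of these differences in the results below was not tested, and in bulk RNA fewer cells of a type and less RNA per cell cannot be told apart.

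The 2 subunit genes of 3-methylcrotonyl-CoA carboxylase, which parted in the Ago2-edited groups, lie on different chromosomes. In GENCODE M21 (GRCm38), Mccc2 (ENSMUSG00000021646) spans chr13:99948530-100015639 on the minus strand and overlaps no other annotated gene. Mccc1 (ENSMUSG00000027709) spans chr3:35959312-36000678 on the minus strand and overlaps 4 annotated genes, among them the antisense transcripts Mccc1os and Gm15952. Whether strand was used in counting is not given in the sources used here, so reads of Mccc1 and of its antisense partners cannot be told apart. The 250 bases before the RefSeq start of each gene (GRCm38.p6, 5′ to 3′ on the gene's strand) are shown because they are what the promoters of the paired subunits can be compared by. Capitals mark matches, on either strand, to the CCAAT box (CCAAT), the GC box (GGGCGG), the E-box (CACGTG), the TATA box (TATAAA), the NRF1 core and the ESRRB element (TCAAGGTCA).

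Mccc2, chr13:100015640-100015889, minus strand: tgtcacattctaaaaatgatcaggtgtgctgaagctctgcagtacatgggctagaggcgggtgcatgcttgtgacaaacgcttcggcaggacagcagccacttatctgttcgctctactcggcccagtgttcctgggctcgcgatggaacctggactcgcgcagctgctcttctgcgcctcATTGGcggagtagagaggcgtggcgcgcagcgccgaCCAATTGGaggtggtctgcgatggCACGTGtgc

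Mccc1, chr3:36000679-36000928, minus strand: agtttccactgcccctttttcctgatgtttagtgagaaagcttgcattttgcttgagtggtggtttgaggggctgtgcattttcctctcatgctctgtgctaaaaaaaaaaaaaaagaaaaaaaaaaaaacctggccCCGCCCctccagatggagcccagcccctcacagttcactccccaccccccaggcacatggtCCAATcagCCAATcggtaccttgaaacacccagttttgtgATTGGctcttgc

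Of the 9 genes, 8 were in the RefSeq promoter table. Mccc2 and Mccc1 each held 3 CCAAT matches in this window, and in Mccc2 the pair nearest the start overlap each other on opposite strands. Mccc2 held an E-box 9 bases upstream of its start, and Mccc1 held none, whereas Mccc1 held a GC box 113 bases upstream and Mccc2 held none. The NRF1 core, the TATA box and the ESRRB element did not occur in either window. Among 32851 mouse promoter windows of the same length, 33.9% held a CCAAT match, 32.7% a GC box, 12.4% a TATA box, 6.02% an E-box, 3.74% the NRF1 core and 0.387% the ESRRB element. These matches describe the sequence and do not show that a factor binds.

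Mccc2 was at 14.1, 14.3 and 14.8 CPM in W and at 3.88, 3.96 and 3.89 CPM in Ago2KO. In Experiment 2 the levels were 13.5, 14.5 and 13.5 CPM in T6B_MUT and 3.90, 4.30 and 4.52 CPM in Ago2KO_empty. Neither pair of groups overlapped, as for 7263 of 21210 genes tested in Ago2KO against W and 9044 of 21505 in Ago2KO_empty against T6B_MUT. The lowest control library lay more than 3-fold above the highest edited one in Experiment 1. The group means were 14.4 ± 0.357 and 3.91 ± 0.0470 CPM (SD, n = 3) in W and Ago2KO, a ratio of 3.69, and 13.8 ± 0.575 and 4.24 ± 0.314 CPM (SD, n = 3) in T6B_MUT and Ago2KO_empty, a ratio of 3.26. On the log2 scale the fitted differences were -1.88 and -1.70. These are the values by which Mccc2 was chosen. Ranked by fold change from the lowest, Mccc2 was number 49 of 21210 genes tested for Ago2KO against W and number 12 of 21505 for Ago2KO_empty against T6B_MUT. Replicates 1, 2 and 3 of Ago2KO_empty, with 87.4, 167 and 45.6 CPM of Ago2, had 3.90, 4.30 and 4.52 CPM of Mccc2. Both are RNA levels, and whether Mccc2 follows the level of Ago2 was not tested. Without replicate 2 the fitted difference was -1.73. Counts behind these levels were 120 to 199 per library in Ago2KO and 157 to 174 in Ago2KO_empty, against 604 to 780 in the controls.

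**Figure D1:**
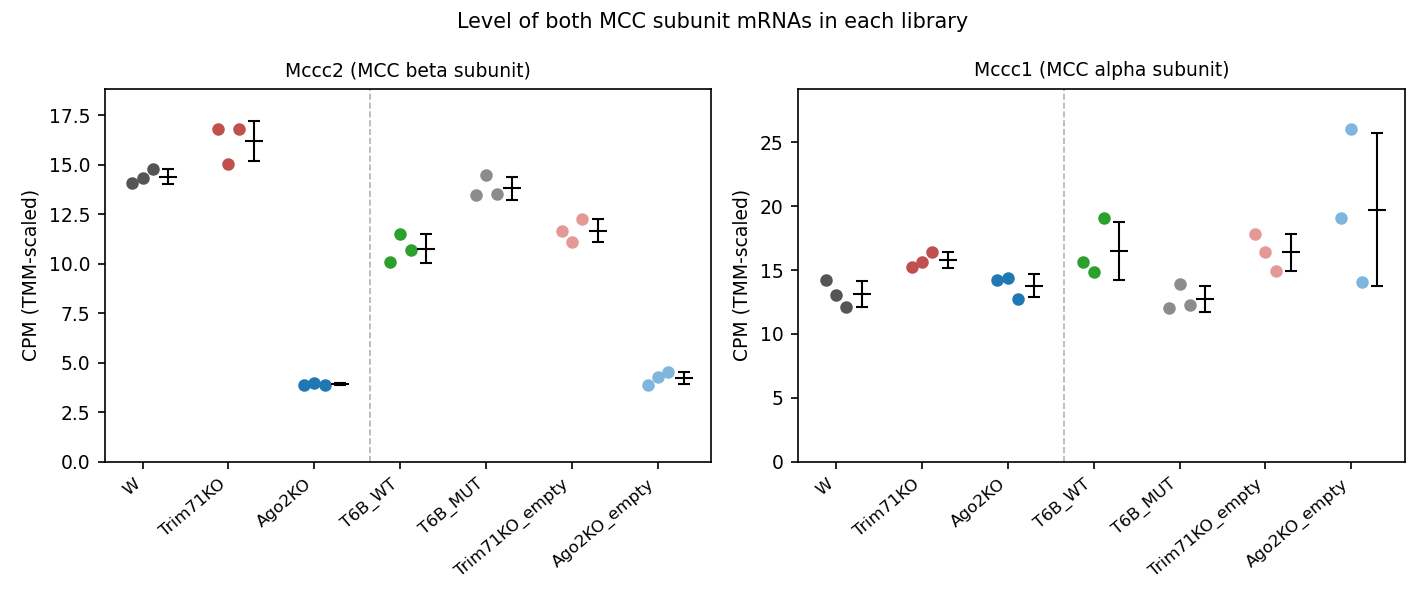
Levels of Mccc2 and Mccc1 in every library. Each point is 1 library, the vertical axis is CPM from 0, and the mean and SD of the 3 libraries stand to the right of each group. Mccc2 lies between 3.88 and 4.52 CPM in the 6 Ago2-edited libraries and between 10.1 and 16.8 CPM in the other 15, while Mccc1 shows no such gap.

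Mccc1 was not called lower where its partner was low. Its levels were 14.2, 13.04 and 12.1 CPM in W and 14.2, 14.4 and 12.8 CPM in Ago2KO, and these ranges overlapped (log2 fold change 0.07, SE 0.08, 95% interval -0.10 to 0.24, adjusted p = 0.620, edgeR quasi-likelihood test). In Experiment 2 it was at 12.1, 13.9 and 12.3 CPM in T6B_MUT and at 19.1, 26.1 and 14.1 CPM in Ago2KO_empty. The 3 libraries labelled Ago2KO_empty were all above T6B_MUT but differed among themselves almost 2-fold, and replicate 2 was the highest. Mccc1 rose there (log2 fold change 0.63, SE 0.19, adjusted p = 0.0288). Without replicate 2 the log2 fold change was 0.36 (adjusted p = 0.0407), and the call was lost without T6B_MUT replicate 1, without T6B_MUT replicate 3, without Ago2KO_empty replicate 1 or with only the 2 groups compared.

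Levels can be compared between the subunit genes only per length, as RPKM, reads scaled by gene length and library size, and the ratio of Mccc2 to Mccc1 RPKM in each library gives their balance. It was 3.88, 4.29 and 4.77 in W and 1.06, 1.08 and 1.19 in Ago2KO. In Experiment 2 it was 4.37, 4.07 and 4.29 in T6B_MUT and 0.798, 0.645 and 1.25 in Ago2KO_empty. Thus Mccc2 RPKM lay near that of Mccc1 in the Ago2-edited cells, where the control libraries had about 4 times as much. Since Mccc2 was chosen for its low level, this is a description. The size of the ratio rests on the deposited gene lengths, 2802 bases for Mccc2 and 10952 bases for Mccc1, which were not tested. In CPM, not scaled by length, Mccc2 and Mccc1 averaged 14.4 and 13.1 in W and 3.91 and 13.8 in Ago2KO. The ratio stayed at 3.76 to 4.31 in Trim71KO and lay between these extremes in T6B_WT (2.19 to 3.03) and Trim71KO_empty (2.56 to 3.21).

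In cells expressing T6B_WT, Mccc2 was at 10.1, 11.5 and 10.7 CPM, below the 3 T6B_MUT libraries (13.5, 14.5 and 13.5 CPM) and far above Ago2KO_empty. Mccc2 fell by 0.36 on the log2 scale (SE 0.09, 95% interval -0.54 to -0.18, adjusted p = 0.00821, n = 3 each, edgeR quasi-likelihood test). The call held in all 12 alternative fits, among them the 6 that leave out a library (adjusted p 0.0128 to 0.0446). T6B_MUT is also the control against which Mccc2 was chosen in Experiment 2, so the comparison is not fully independent of that choice. The Ago2KO change exceeded the T6B_WT change by -1.53 on the log2 scale, again as a description. Mccc1 was at 15.6, 14.8 and 19.1 CPM in T6B_WT, with no overlap with T6B_MUT, but its difference did not pass (0.37, SE 0.19, adjusted p = 0.227) except with only the 2 groups compared. These 2 groups did not overlap for 8445 of 21505 genes tested.

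Among the Trim71-edited cells, Mccc2 was at 16.8, 15.1 and 16.8 CPM in Trim71KO, above the W libraries, with a difference of 0.17 (SE 0.07, adjusted p = 0.0818) that did not pass. With the empty plasmid it was at 11.7, 11.1 and 12.3 CPM, below the T6B_MUT libraries, and fell by 0.24 (SE 0.09, adjusted p = 0.0466). That call was lost with DESeq2, with the replicate number as a block and in 5 of the 6 fits that leave out a library (adjusted p 0.0398 to 0.148). The difference between the experiments, 0.41 (SE 0.11), had an adjusted p of 0.0163 in the fit over all 21 libraries. It was no longer called without W replicate 1 (0.37, adjusted p = 0.0543), T6B_MUT replicate 2 (0.35, adjusted p = 0.0619) or Trim71KO_empty replicate 2 (0.35, adjusted p = 0.0512). W and T6B_MUT are also the controls against which Mccc2 was chosen, so these Trim71 comparisons are not fully independent of that choice. Over all groups of Experiment 1 the order of Mccc2 was Trim71KO, W and Ago2KO with no overlap between neighbours. In Experiment 2 it was T6B_MUT, Trim71KO_empty, T6B_WT and Ago2KO_empty, where only Trim71KO_empty and T6B_WT overlapped. Over all genes tested, 9401 of 21210 did not overlap between Trim71KO and W, and 9777 of 21505 between Trim71KO_empty and T6B_MUT.

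Of the other 8 pathway genes 2 were called in Ago2KO and 5 in Ago2KO_empty. Against W, Bcat1 rose, Bcat2 fell and the remaining 6 were not called, with a median log2 fold change of 0.09 over the 8 genes and -0.0029 over all genes tested. Of all 21210 genes tested 18.0% were called, 10.2% higher and 7.78% lower. Against T6B_MUT, 3 of the 8 rose in Ago2KO_empty (Mccc1, Dbt and Auh), 2 fell (Bckdhb and Bcat2) and 3 were not called, with a median of 0.08 over the 8 genes and 0.03 over all genes. There 28.8% of 21505 genes were called, 16.4% higher and 12.4% lower. Without replicate 2 of Ago2KO_empty the same counts were 3 and 2 of 8, against 23.7% of all genes. Of these 8 genes 1, Bcat2, was lower in both Ago2 comparisons and 0 were higher in both, where 4.48% of 20588 genes tested in both were lower in both and 7.06% higher in both. Without Ago2KO_empty replicate 2 the 8 genes gave the same counts, against 4.37% and 6.11% of all genes. None of the other 8 genes was called between the Ago2 comparisons in the edgeR quasi-likelihood test of the difference, where 2.13% of 22258 genes were called. Of these, 2 had an unadjusted p under 0.05 (Mccc1, -0.55, and Ivd, 0.24), DESeq2 called 0, and without Ago2KO_empty replicate 3 these 2 genes were called. Without replicate 2 neither was called (-0.31 and 0.13, adjusted p = 0.385 and 0.582).

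**Figure D2:**
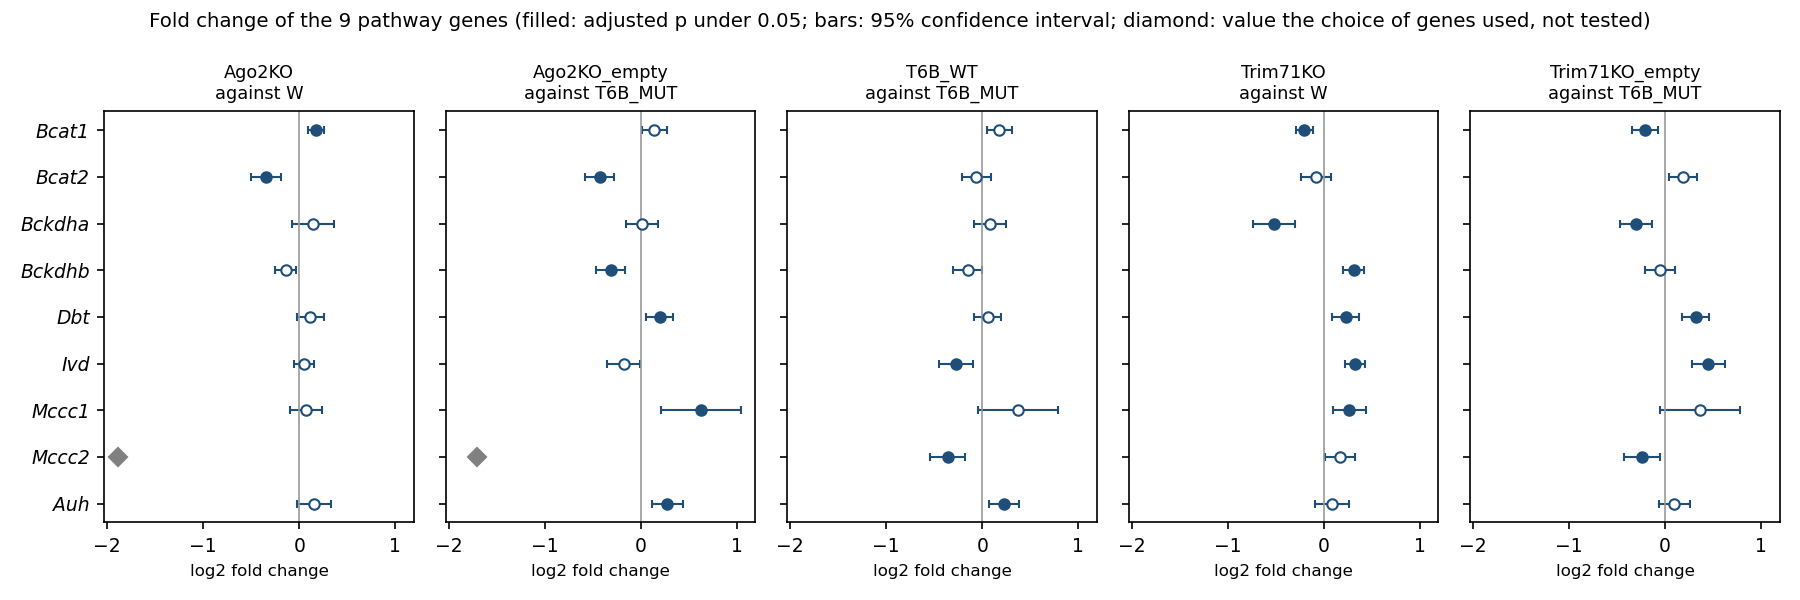
Log2 fold change of the 9 genes in the 5 comparisons with a control. Points are fitted values, bars the 95% confidence interval, and filled points have an adjusted p under 0.05 (edgeR quasi-likelihood test). Diamonds mark Mccc2 in the comparisons by which it was chosen, at -1.88 and -1.70, while the other 8 genes lie between -0.52 and 0.63 in all panels.

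Bcat2, the mitochondrial transaminase (chr7:45570153-45589711, plus strand), was lower in both Ago2-edited groups. It was at 53.8, 61.0 and 64.2 CPM in W and at 49.9, 46.9 and 43.9 CPM in Ago2KO (log2 fold change -0.35, SE 0.07, adjusted p = 0.00406). Experiment 2 had Bcat2 at 37.8, 37.2 and 34.0 CPM in T6B_MUT and at 27.2, 25.5 and 28.2 CPM in Ago2KO_empty (-0.43, SE 0.07, adjusted p = 0.000252, and -0.41, adjusted p = 0.000692, without replicate 2). The groups overlapped in neither experiment, as for 7263 of 21210 genes tested in Ago2KO and 9044 of 21505 in Ago2KO_empty. The Bcat2 calls held in all 12 alternative fits of each comparison. The difference was much smaller than that of Mccc2. In T6B_WT, Bcat2 was at 33.6, 36.1 and 34.7 CPM, overlapping T6B_MUT (-0.06, 95% interval -0.21 to 0.09, adjusted p = 0.629). In the Trim71-edited cells it was not called against either control (-0.08 and 0.19, adjusted p = 0.454 and 0.0581), the latter except with a filter of CPM above 1 or with only the 2 groups compared. Trim71KO_empty lay above Ago2KO_empty by 0.61 (adjusted p = 2.69e-06) and Trim71KO above Ago2KO by 0.27 (adjusted p = 0.0107), a call lost without Ago2KO replicate 3 (0.22, adjusted p = 0.0619). Bcat2 overlaps the antisense gene 0610005C13Rik, so its counts are uncertain in that respect.

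Bcat1, the cytosolic transaminase (chr6:144993835-145076184, minus strand), was the most abundant of the 9 genes per length, at 53.3 ± 1.47 RPKM in W and 66.3 ± 2.61 RPKM in T6B_MUT (SD, n = 3). It was at 478, 500 and 494 CPM in W, at 560, 549 and 551 CPM in Ago2KO and at 425, 420 and 435 CPM in Trim71KO, so that the edited groups lay on opposite sides of the parental line. It rose in Ago2KO (0.17, SE 0.04, adjusted p = 0.00640) and fell in Trim71KO (-0.20, SE 0.04, adjusted p = 0.00122). Experiment 2 had Bcat1 at 634, 601 and 644 CPM in T6B_MUT, 551, 552 and 522 CPM in Trim71KO_empty, 695, 657 and 720 CPM in Ago2KO_empty and 708, 730 and 686 CPM in T6B_WT. It fell in Trim71KO_empty (-0.21, SE 0.06, adjusted p = 0.0175, lost without T6B_MUT replicate 1 or 3 or Trim71KO_empty replicate 3). The differences of Ago2KO_empty (0.14, adjusted p = 0.0948, and 0.16, adjusted p = 0.0866, without replicate 2) and T6B_WT (0.18, adjusted p = 0.0613) did not pass, and that of T6B_WT passed with DESeq2, with a filter of CPM above 1 and with only the 2 groups compared. Set directly against each other, the Trim71-edited cells were lower than the Ago2-edited cells by -0.37 in Experiment 1 (adjusted p = 4.25e-06) and -0.35 in Experiment 2 (adjusted p = 0.000271). Bcat1 overlaps 3 annotated genes, among them the antisense genes Gm26666 and Gm15687.

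The genes of the keto acid dehydrogenase complex were called in opposite directions in Trim71KO, and differed in which groups they were called. Bckdha, the E1 alpha subunit (chr7:25629946-25658981, minus strand, overlapping B3gnt8 on the other strand), was at 78.5, 88.4 and 93.5 CPM in W and 56.3, 55.2 and 70.0 CPM in Trim71KO. It fell by 0.52 on the log2 scale there (SE 0.10, adjusted p = 0.00202) and by 0.30 in Trim71KO_empty (SE 0.08, adjusted p = 0.00754), where it was at 65.5, 60.4 and 69.9 CPM against 84.2, 81.7 and 76.1 CPM in T6B_MUT. Both calls held in every alternative fit. In Ago2KO (103, 86.5 and 98.0 CPM) and Ago2KO_empty (76.9, 78.4 and 89.0 CPM) it overlapped the controls, with differences of 0.14 (95% interval -0.07 to 0.36) and 0.01 (-0.15 to 0.18). Without Ago2KO_empty replicate 2 the latter was 0.02 (adjusted p = 0.880).

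Bckdhb, the E1 beta subunit (chr9:83925145-84124240, plus strand, overlapping 3 annotated genes on the other strand), went the other way in Trim71KO. It was at 46.8, 46.8 and 47.2 CPM there and at 37.3, 37.3 and 38.9 CPM in W, and rose by 0.31 (SE 0.05, adjusted p = 0.000207). In Trim71KO_empty it was at 35.5, 38.1 and 40.1 CPM, overlapping the 40.5, 36.5 and 40.7 CPM of T6B_MUT (-0.05, adjusted p = 0.650). The Trim71 difference of Experiment 1 exceeded that of Experiment 2 by 0.36 (SE 0.09, adjusted p = 0.0104), a call that held in all 17 alternative fits. In Ago2KO_empty it was at 30.5, 30.6 and 33.6 CPM, below T6B_MUT, and fell by 0.32 (SE 0.07, adjusted p = 0.00389, and -0.31, adjusted p = 0.00827, without replicate 2). In Ago2KO, at 35.0, 34.2 and 33.7 CPM, it also lay below every W library, but the difference of -0.14 did not pass (SE 0.05, adjusted p = 0.0625).

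Dbt, the E2 core of the complex (chr3:116513070-116549981, plus strand, overlapping Gm4596 and Gm43651), was highest in the Trim71-edited cells. It was at 61.1, 54.3 and 54.4 CPM in W and 67.3, 68.3 and 63.5 CPM in Trim71KO, and rose by 0.23 (SE 0.06, adjusted p = 0.0130), a call lost without W replicate 2 or 3 or Trim71KO replicate 1 or 2. In Experiment 2 it was at 69.4, 64.2 and 72.8 CPM in T6B_MUT and 87.0, 87.8 and 83.0 CPM in Trim71KO_empty, and rose by 0.32 (SE 0.07, adjusted p = 0.00138) in every alternative fit. The rise in Ago2KO_empty (79.8, 74.7 and 82.2 CPM, 0.20, SE 0.07, adjusted p = 0.0340) was lost in 5 of the 6 fits that leave out a library, with DESeq2, with RLE size factors, with no filter and with only the 2 groups compared. It held in 3 of 12 alternative fits, among them the one without replicate 2 (0.22, adjusted p = 0.0273). In Ago2KO (57.1, 66.1 and 60.8 CPM) the difference was 0.11 (adjusted p = 0.255).

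**Figure D3:**
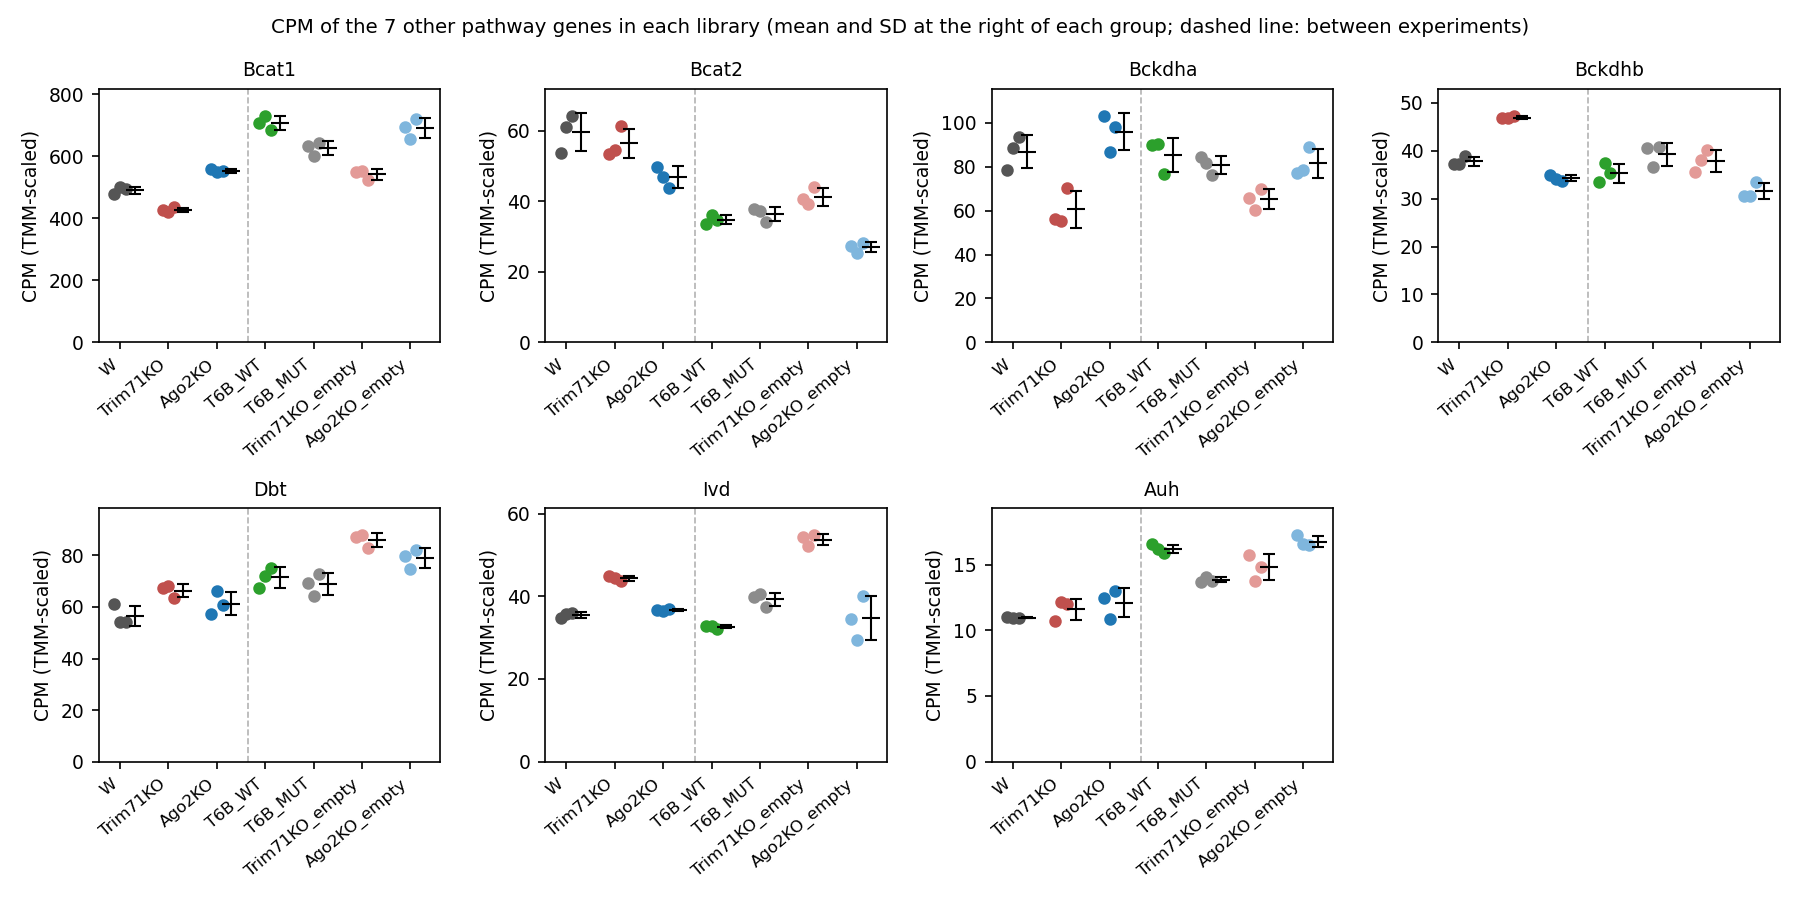
Levels of the 7 other pathway genes in every library. Each point is 1 library, the vertical axes are CPM from 0 and differ between panels, and the mean and SD of the 3 libraries stand to the right of each group. Ivd and Dbt are highest in Trim71KO_empty, Bckdha is lowest in both Trim71-edited groups, and Bcat2 is lowest in each experiment in the Ago2-edited group.

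Ivd, the dehydrogenase just before 3-methylcrotonyl-CoA carboxylase (chr2:118861954-118882909, plus strand, no overlapping gene), rose in both Trim71-edited groups. It was at 34.7, 35.8 and 36.0 CPM in W and 45.0, 44.4 and 43.8 CPM in Trim71KO, and rose by 0.32 (SE 0.05, adjusted p = 0.000144). With the empty plasmid it was at 54.2, 52.2 and 54.7 CPM against 39.9, 40.5 and 37.5 CPM in T6B_MUT, and rose by 0.45 (SE 0.08, adjusted p = 0.000500). The groups did not overlap in either experiment, as for 9401 of 21210 genes tested in Trim71KO and 9777 of 21505 in Trim71KO_empty. Both Ivd calls held in every alternative fit. In Ago2KO it was at 36.7, 36.5 and 37.0 CPM, a difference of 0.05 (95% interval -0.06 to 0.15, adjusted p = 0.553). In Ago2KO_empty it was at 34.4, 29.5 and 40.2 CPM, with replicate 3 inside the T6B_MUT range (-0.18, adjusted p = 0.117). Without replicate 3 it was called lower (-0.32, adjusted p = 0.00271), and without replicate 2 it was not (-0.09, adjusted p = 0.402). In T6B_WT it was at 32.9, 32.8 and 32.2 CPM and fell by 0.27 (SE 0.08, adjusted p = 0.0355), but this call was lost in each of the 6 fits that leave out a library.

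Auh, which follows the carboxylase (chr13:52835119-52929681, minus strand, no overlapping gene), had counts of 329 to 793 per library. It was at 11.0, 10.9 and 10.9 CPM in W and 12.4, 10.9 and 13.01 CPM in Ago2KO, a difference of 0.15 that did not pass (adjusted p = 0.245). Experiment 2 had Auh at 13.7, 14.1 and 13.7 CPM in T6B_MUT, 17.2, 16.6 and 16.5 CPM in Ago2KO_empty and 16.5, 16.2 and 15.9 CPM in T6B_WT. It rose in Ago2KO_empty (0.28, SE 0.08, adjusted p = 0.0107, and 0.27, adjusted p = 0.0262, without replicate 2), a call lost without T6B_MUT replicate 1 or 3 or Ago2KO_empty replicate 1. The call in T6B_WT (0.23, SE 0.08, adjusted p = 0.0459) was lost with DESeq2, with RLE size factors, with no filter, with the replicate number as a block and in each of the 6 fits that leave out a library, and held in 2 of 12. In the Trim71-edited cells it was not called (0.08 and 0.10, adjusted p = 0.485 and 0.374).

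In T6B_WT, then, 3 of the 9 genes were called, Mccc2 and Ivd lower and Auh higher, where 16.0% of 21505 genes were called, 9.29% higher and 6.69% lower, and of these 3 only Mccc2 was called whichever library was left out. In Trim71KO 4 of the 9 genes rose (Mccc1, Bckdhb, Dbt and Ivd) and 2 fell (Bckdha and Bcat1), where 32.6% of 21210 genes were called, 16.9% higher and 15.6% lower. The rise of Mccc1 (0.27, SE 0.08, adjusted p = 0.0181) was lost without W replicate 2 or 3 or Trim71KO replicate 3. In Trim71KO_empty 2 rose (Dbt and Ivd) and 3 fell (Bckdha, Bcat1 and Mccc2), where 27.8% of 21505 genes were called, 14.4% higher and 13.4% lower. Dbt and Ivd were higher and Bckdha and Bcat1 lower in both Trim71 comparisons, 2 of 9 in each direction, where 8.01% of 20588 genes were higher in both and 7.03% lower in both. Trim71KO and Ago2KO share W as control, and the 3 groups compared with T6B_MUT share that control, so their fold changes are not independent of each other.

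The edited groups were also compared directly, without those controls. Of the 8 genes other than Mccc2, 3 were higher in Trim71KO than in Ago2KO (Bckdhb, Bcat2 and Ivd) and 2 lower (Bckdha and Bcat1), where 34.2% of 21210 genes were called, 17.1% higher and 17.1% lower. The same 5 genes were called in the same directions in Trim71KO_empty against Ago2KO_empty, where 31.6% of 21505 genes were called, 14.7% higher and 16.9% lower. Bckdhb was higher by 0.45 and 0.26 in the 2 experiments, Ivd by 0.27 and 0.63, and Bckdha was lower by -0.66 and -0.32. Without Ago2KO_empty replicate 2 the same 5 genes were called in Experiment 2, with Bckdhb at 0.25, Ivd at 0.54, Bcat2 at 0.58, Bckdha at -0.34 and Bcat1 at -0.38 (adjusted p = 0.0251, 1.64e-05, 7.59e-06, 0.00578 and 0.000180). Of the Trim71 differences between experiments, those of Mccc2 and Bckdhb were called, 2 of 9, where 10.1% of 22258 genes were called. None of the other 8 genes was called between the Ago2KO and the T6B_WT change in the edgeR quasi-likelihood test, where 3.16% of 22258 genes were called. Of these 8, 2 had an unadjusted p under 0.05 (Bcat2, -0.29, and Ivd, 0.32), and DESeq2 called 0. Without W replicate 1 Bcat2 was called (-0.37, adjusted p = 0.0479).

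A wider list of 40 genes that work next to the 9 held the partners and regulators of the dehydrogenase complex, the isoleucine, valine and propionate branches, the other biotin enzymes, the electron carriers, ketone body enzymes and amino acid transporters. Of these 39 were in the table, and all 39 were tested. In Ago2KO 7 of 39 rose and 4 fell, with a median log2 fold change of -0.0076, where 18.0% of all genes were called. In Ago2KO_empty 9 rose and 7 fell, with a median of -0.05, where 28.8% of all genes were called, and without replicate 2 7 rose and 7 fell, against 23.7%. In T6B_WT 4 rose and 4 fell (median 0.05), against 16.0% of all genes. In Trim71KO 15 rose and 5 fell (median 0.07), against 32.6%, and in Trim71KO_empty 13 rose and 8 fell (median 0.13), against 27.8%. Over all genes tested the medians were -0.0029, 0.03, 0.0066, -0.00074 and 0.0025 in the same order. Biotin is the cofactor of 3-methylcrotonyl-CoA carboxylase. Of 5 other genes that use or handle it (Pcx, Acaca, Acacb, Hlcs and Btd), 1 rose and 1 fell in Ago2KO and 1 rose and 0 fell in Ago2KO_empty. Pcca and Pccb were counted with the propionate branch and are not among these 5.

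Propionyl-CoA carboxylase is the nearest relative of the enzyme, with its own alpha and beta subunits, Pcca and Pccb. Its subunit genes were not called in either Ago2 comparison, with differences of -0.20 and 0.13 in Ago2KO and -0.0080 and 0.04 in Ago2KO_empty. In Trim71KO both rose, Pcca from 7.74 ± 0.185 to 11.3 ± 0.882 CPM (0.54, adjusted p = 0.000851) and Pccb from 22.2 ± 0.299 to 28.0 ± 0.998 CPM (0.33, adjusted p = 0.000369; SD, n = 3). In Trim71KO_empty Pcca was not called (0.13), and the rise of Pccb (0.22, adjusted p = 0.0289) was lost in 5 of the 6 fits that leave out a library. Pyruvate carboxylase (Pcx) rose in Trim71KO from 40.8 ± 2.30 to 63.9 ± 3.77 CPM (0.65, adjusted p = 5.25e-06) and in Trim71KO_empty from 48.7 ± 1.96 to 63.2 ± 5.64 CPM (0.38, adjusted p = 0.000815), and its differences in Ago2KO (0.18) and Ago2KO_empty (0.12) did not pass. Acetyl-CoA carboxylase 1 (Acaca) fell by 0.46 in Trim71KO_empty (adjusted p = 0.0123) and was not called in Ago2KO (-0.13) or Ago2KO_empty (-0.12), and its relative Acacb was called in none of the 5 comparisons. Hlcs, which attaches biotin to these enzymes, fell by 0.27 in Ago2KO (adjusted p = 0.0220, lost without W replicate 3 or Ago2KO replicate 3) and by 0.50 in Trim71KO (adjusted p = 0.000182), and was not called in Ago2KO_empty (-0.06).

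**Figure D4:**
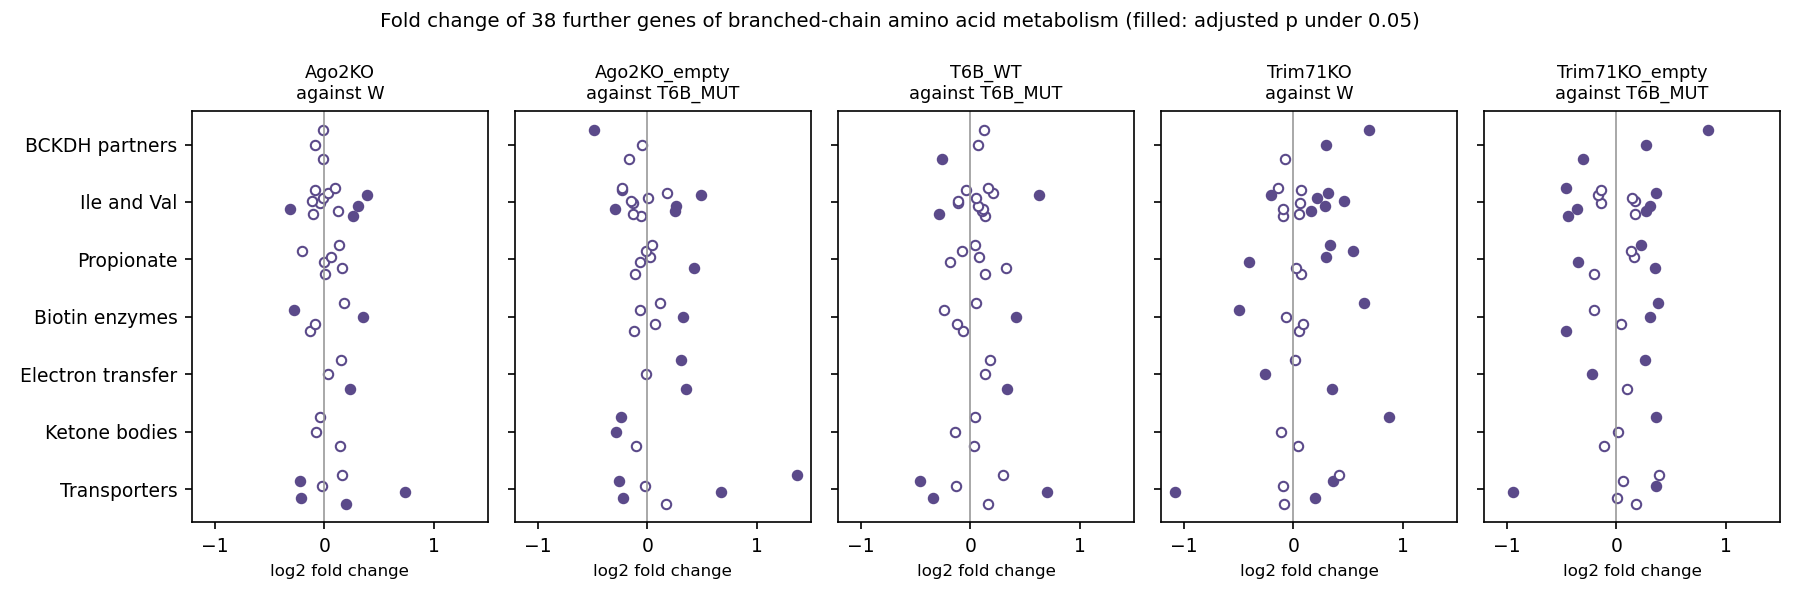
Log2 fold change of the genes of the wider list in the 5 comparisons with a control, grouped by role, for roles with 3 or more genes. Each point is 1 gene, filled where the adjusted p is under 0.05 (edgeR quasi-likelihood test). Slc43a1 lies at 0.73, 0.67 and 0.70 in Ago2KO, Ago2KO_empty and T6B_WT and at -1.08 and -0.94 in the Trim71-edited groups, and the lowest gene of the list in the Ago2-edited groups lies at -0.48.

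Ppm1k, the phosphatase that activates the dehydrogenase complex, was at 3.41 ± 0.553 CPM in W, 5.52 ± 0.334 CPM in Trim71KO and 3.39 ± 0.0852 CPM in Ago2KO (SD, n = 3). It rose in Trim71KO (0.69, adjusted p = 0.000416) and in Trim71KO_empty (0.83, adjusted p = 7.28e-05), and fell in Ago2KO_empty (-0.48, adjusted p = 0.0127, and -0.52, adjusted p = 0.0165, without replicate 2). Bckdk, the kinase that inhibits the complex, was not called in Trim71KO or the Ago2 comparisons and fell in Trim71KO_empty (-0.31, adjusted p = 0.0100, lost without T6B_MUT replicate 1 or Trim71KO_empty replicate 1) and T6B_WT (-0.26, adjusted p = 0.0445), the latter in none of the 6 fits that leave out a library. Dld, the E3 subunit, rose in Trim71KO (0.30, adjusted p = 0.00213) and Trim71KO_empty (0.27, adjusted p = 0.0207, lost without T6B_MUT replicate 1 or 2 or Trim71KO_empty replicate 2).

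Some genes of the wider list moved in the same direction in Ago2KO, Ago2KO_empty and T6B_WT, of which the last 2 share a control. Of the 39 genes, 5 were called higher and 3 lower in both Ago2 comparisons. These were 20.5%, where 11.5% of 20588 genes tested in both were called in the same direction. Besides the genes below, Btd and Etfa were called higher in all 3 comparisons. Without Ago2KO_empty replicate 2 Etfa was not called there (0.19, adjusted p = 0.0775). Slc43a1, a transporter of branched-chain amino acids, was at 4.96 ± 0.631 CPM in W, 8.24 ± 0.399 CPM in Ago2KO and 2.33 ± 0.260 CPM in Trim71KO (SD, n = 3). It rose by 0.73 in Ago2KO, 0.67 in Ago2KO_empty and 0.70 in T6B_WT (adjusted p = 0.000316, 0.000423 and 0.000418) and fell by 1.08 in Trim71KO and 0.94 in Trim71KO_empty (adjusted p = 1.23e-05 and 3.05e-05). Hadhb, the beta subunit of the mitochondrial trifunctional protein, rose by 0.39 in Ago2KO, 0.49 in Ago2KO_empty and 0.63 in T6B_WT (adjusted p = 0.00112, 4.63e-05 and 4.43e-06). Slc7a5 and Slc3a2 encode the light and heavy chain of the main leucine importer of dividing cells. Slc7a5 fell by 0.23, 0.26 and 0.46 in these comparisons (adjusted p = 0.00636, 0.00586 and 7.07e-05), and Slc3a2 by 0.21, 0.22 and 0.34 (adjusted p = 0.0142, 0.0163 and 0.00133). The calls of Slc43a1, Hadhb and Slc7a5 in these comparisons held in all alternative fits, that of Slc3a2 in Ago2KO was lost in 4 of 6 fits that leave out a library, and that of Slc3a2 in Ago2KO_empty without T6B_MUT replicate 1. Without Ago2KO_empty replicate 2 the differences of Slc43a1, Hadhb, Slc7a5 and Slc3a2 there were 0.65, 0.51, -0.26 and -0.19 (adjusted p = 0.00115, 3.09e-05, 0.0108 and 0.0495). In Trim71KO Oxct1, which starts ketone body use, rose from 88.2 ± 1.25 to 161 ± 0.562 CPM (0.87, adjusted p = 8.37e-09; SD, n = 3), and Slc7a5 rose by 0.36 (adjusted p = 7.30e-05).

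The remaining genes named here had some of the widest called differences of the list in at least 1 comparison. Acat1, a thiolase that acts at the end of the isoleucine branch, fell in Ago2KO (-0.31, adjusted p = 0.00313) and in Ago2KO_empty (-0.29, adjusted p = 0.0336). The latter call held in 2 of the 6 fits that leave out a library, among them the one without replicate 2 (-0.32, adjusted p = 0.0443). Acad8, the isobutyryl-CoA dehydrogenase of the valine branch, fell in T6B_WT (-0.28, adjusted p = 0.00778). In Trim71KO_empty Hibadh of the valine branch rose (0.36, adjusted p = 0.00183), and Hsd17b10 of the isoleucine branch and Acaa2, a mitochondrial thiolase, fell (-0.46 and -0.44, adjusted p = 0.000968 and 0.00173). These calls of Hibadh, Hsd17b10, Acaa2 and Acad8 held in every alternative fit. Hibadh was also called higher in Trim71KO, in all 12 alternative fits. In Trim71KO Mmab, which makes the cobalamin cofactor of the propionate branch, and Etfb, an electron carrier gene, fell (-0.40 and -0.26, adjusted p = 0.00206 and 0.00432), and Ehhadh, a peroxisomal enzyme, rose (0.46, adjusted p = 0.0311, in 2 of the 6 fits that leave out a library). Etfa, another electron carrier gene, rose in Trim71KO (0.35, called in all 12 alternative fits). Mmab and Etfb were also called lower in Trim71KO_empty, Etfb in 6 of 12 alternative fits. Btd, which recycles biotin, rose in Ago2KO (0.36, adjusted p = 0.0163, in 3 of the 6 fits that leave out a library) and in T6B_WT (0.42, adjusted p = 0.00766, lost without T6B_WT replicate 1). It was also called higher in Ago2KO_empty, in 1 of the 6 such fits, the one without replicate 2 (0.38, adjusted p = 0.0143). In Trim71KO_empty Btd was called too, but in 0 of the 6 such fits. Hmgcs1, which makes HMG-CoA for sterol synthesis in the cytosol, fell in Ago2KO_empty (-0.29, adjusted p = 0.00306, and -0.30, adjusted p = 0.00469, without replicate 2). The transporter gene Slc7a8 rose there from 0.308 ± 0.0867 to 0.788 ± 0.417 CPM (SD, n = 3; 1.37, adjusted p = 0.00841), but without replicate 2 the difference was 0.85 (adjusted p = 0.0902). Oxct1 rose by 0.36 in Trim71KO_empty (adjusted p = 0.000326), as did the transporter gene Slc43a2 (0.36, adjusted p = 0.0298, in 3 of the 6 such fits).

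Of the genes around Mccc2, none was as low in the Ago2-edited groups. Its nearest tested protein-coding neighbour, Bdp1, a subunit of the RNA polymerase III factor TFIIIB, starts at the far end of chr13:100017994-100104070 on the same minus strand and ends 2.36 kb upstream of the Mccc2 start. Bdp1 averaged 129 CPM in W and 117 CPM in Ago2KO, with overlapping libraries (-0.13, SE 0.07, adjusted p = 0.200), and 134 CPM in T6B_MUT and 145 CPM in Ago2KO_empty (0.12, SE 0.08, adjusted p = 0.295). Of 10 neighbours, 5 on each side, Mrps27 at 533 kb fell in both Ago2 comparisons (-0.22 and -0.38, adjusted p = 0.00606 and 0.000715), and Map1b at 432 kb rose in both (0.49 and 0.84, adjusted p = 8.02e-05 and 0.00799). Fcho2 at 1133 kb rose in Ago2KO (0.41, adjusted p = 0.0474), with a difference of 1.05 in Ago2KO_empty that did not pass (adjusted p = 0.0542). Serf1 lay below both controls with no overlap but did not pass (-0.34 and -0.45, adjusted p = 0.102 and 0.0729), and Smn1, Ptcd2 and Tnpo1 were not called in either comparison. Groups did not overlap for 7263 of 21210 genes tested in Ago2KO and 9044 of 21505 in Ago2KO_empty. Without Ago2KO_empty replicate 2 Mrps27 was at -0.44 and Map1b at 0.58 (adjusted p = 0.000308 and 0.000609), and Bdp1, Fcho2 and Serf1 were at 0.03, 0.58 and -0.41 and not called. Naip5 and Naip6 averaged under 1 CPM and belong to a family of near-identical copies, so their values are uncertain.

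**Figure D5:**
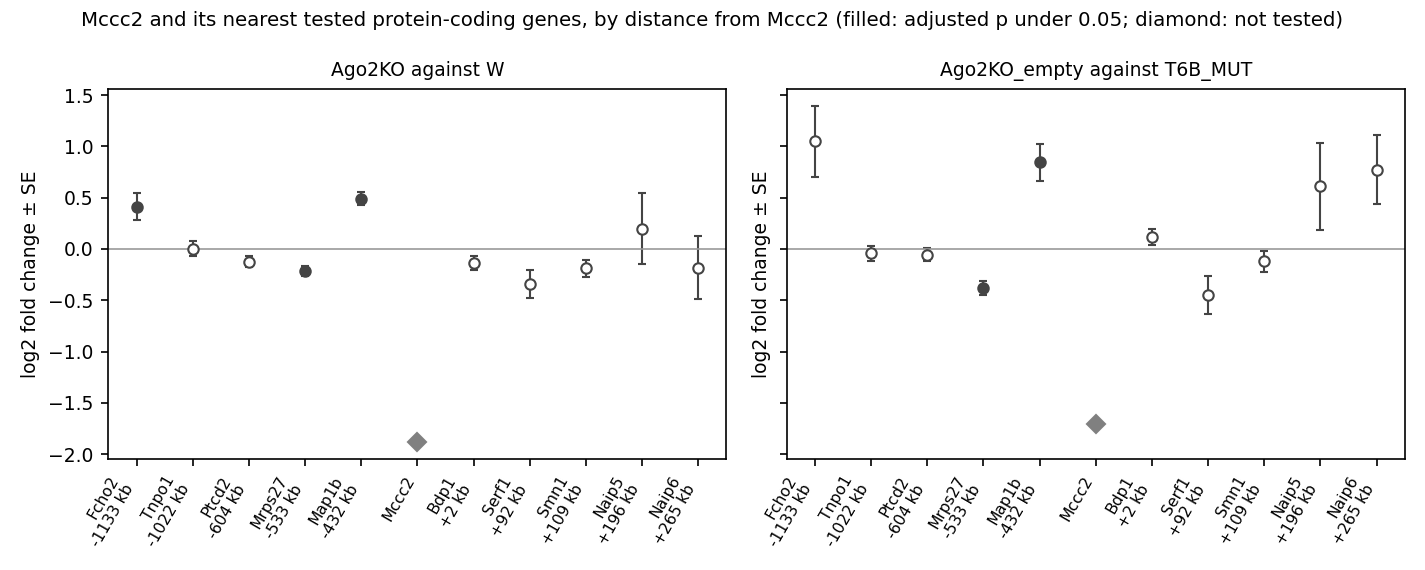
Log2 fold change of Mccc2 and of 5 tested protein-coding genes on each side, in order along the chromosome with the distance from Mccc2. Bars are the SE, filled points have an adjusted p under 0.05, and the diamonds are Mccc2 at -1.88 and -1.70. The neighbours lie between -0.34 and 0.49 in Ago2KO and between -0.45 and 1.05 in Ago2KO_empty.

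By the correlation of log2 CPM over the 21 libraries, each centred on its experiment, the genes most like Mccc2 of 12580 whose log2 CPM averaged 2 or more were Reps1 (r = 0.95), Ap1m2 (0.94), Foxred2 (0.93), Bspry (0.93) and Snd1 (0.93). The libraries share groups and experiments, and the low Mccc2 values by which the gene was chosen enter r. A gene that is somewhat lower in the Ago2-edited groups therefore has a high r, and r and the ranks are a description only. Bspry and Ap1m2 came nearest to Mccc2 in size: Bspry averaged 10.6 ± 0.937 CPM in W and 3.61 ± 0.271 CPM in Ago2KO, and Ap1m2 averaged 11.5 ± 0.425 and 4.99 ± 0.0901 CPM (SD, n = 3). Their log2 differences were -1.55 and -1.21 in Ago2KO, -1.60 and -1.23 in Ago2KO_empty and -0.75 and -0.46 in T6B_WT. Of the pathway genes, Bckdhb (r = 0.82, rank 117) and Bcat2 (r = 0.82, rank 119) were most like Mccc2, and Ivd had r = 0.38 and Dbt -0.09. Its partner Mccc1 had r = -0.28, Bckdha -0.46, Auh -0.57 and Bcat1 -0.63.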

How the data were processed

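RNA was sequenced with a stranded total RNA kit, per the labels' protocols, and base calling with bcl2fastq 2.17, alignment with STAR 2.7.3a and the build GRCm38 are named in the submitters' processing notes. The annotation, the use of strand in counting and the gene filter are not given in the sources used here. The authors deposited raw counts per gene, which are whole numbers and not normalized, and these entered all tests. The authors also deposited RPKM values, scaled to 0.962 to 1.05 times the column totals, which were used only to compare genes per length. The deposited gene length, named for QuasR in the file headers, is in bases and was not tested. The lowest total of a gene over the libraries was 17 counts.

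The members and the wider lists were chosen with earlier results of these data known. Of the IDs, 22480 were found in GENCODE M21, and 22492 rows had a symbol. In each experiment edgeR 4.0.16 (R 4.3.3) was fitted to all its libraries across all genes, with filterByExpr (minimum count 10), TMM scaling (factors 0.956 to 1.03) and the robust quasi-likelihood F test. P-values were adjusted by Benjamini-Hochberg over all genes tested, and calls are those with an adjusted p under 0.05. Differences between experiments were fitted over all 21 libraries, each against its own control. CPM are TMM-scaled, and SE and 95% intervals are from the fit. The design text calls the replicates biological, and p-values measure the spread between these libraries. Named from the wider list in every comparison were Dld, Bckdk, Ppm1k, Pcca, Pccb, Pcx, Acaca, Acacb and Hlcs and, per comparison, up to 3 called genes with the largest rise and 3 with the largest fall; an item that the rule also named is not reported here. The genes most like Mccc2 were ranked by Pearson's r on log2 CPM (prior count 2). Alternatives were RLE size factors, DESeq2 1.42.0, no filter, CPM above 1 in 3 libraries, the replicate number as a block, only the 2 groups compared, and leaving out each library. The procedure was tested on simulated counts.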

Additional observations from a re-analysis of the deposited data

Results flagged for a closer look

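Trim71 editing was compared with a control in both experiments, and 6 of the genes described here had a log2 fold change that differed between them in the edgeR quasi-likelihood test of the difference (Experiment 1 minus Experiment 2, 3 libraries a group), where 10.1% of 22258 genes were called. They were 2 of the 9 pathway genes and 4 of the 39 tested genes of the wider list. Among the 9 pathway genes these were Mccc2, with a difference of 0.41 (SE 0.11, adjusted p = 0.0163), and Bckdhb, with 0.36 (SE 0.09, adjusted p = 0.0104). In the wider list they were Oxct1, with 0.51 (SE 0.08, adjusted p = 0.000112), Acaca, with 0.50 (SE 0.14, adjusted p = 0.0201), Slc7a5, with 0.30 (SE 0.09, adjusted p = 0.0222), and Slc43a2, with -0.46 (SE 0.14, adjusted p = 0.0429). The calls of Bckdhb and Oxct1 held in all 17 alternative fits. Those of Acaca, Slc7a5 and Slc43a2 held in 10, 11 and 9 of 17. In Experiment 2 the control carried T6B_MUT and the edited cells an empty plasmid, so plasmid and genotype cannot be told apart there. Mccc2 was chosen against the same controls, W and T6B_MUT, so its difference is not fully independent of that choice.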

How the results depend on the processing

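Of 1133 values of the 9 genes under other settings, those of Mccc2 in comparisons with an Ago2-edited group left out, 1032 kept their direction and side of the threshold, 53 lost a call, 13 gained one, and 35 changed sign, of which 0 were called with either setting. The cause of these changes was not tested. In T6B_WT against T6B_MUT 3437 genes were called, 5632 with only the 2 groups compared and 2045 to 2497 when a library was left out. Of the 9 genes 3 were called, 5 with only the 2 groups compared and 1 in every fit without a library. Leaving out a library gave 3894 to 8083 genes (6201 with all) and, counting Mccc2, 3 to 6 of the 9 genes for Ago2KO_empty, which is 2 to 5 of the other 8. It gave 3 to 4 of the 9 (5 with all) for Trim71KO_empty. For the difference of the Ago2 comparisons it gave 269 to 1634 genes (473 with all) and 0 to 2 of the 9. For the difference of the Trim71 comparisons it gave 1 to 2 of the 9, and for Ago2KO minus T6B_WT, counting Mccc2, 1 to 2, which is 0 to 1 of the other 8. Mccc2 was chosen from these values, so its place in such counts is a description. The wider list, whose alternatives were added after seeing the data, gave 7 to 9 calls in Ago2KO (11 with all), 12 to 20 in Trim71KO_empty (21 with all) and 10 to 19 in Ago2KO_empty (16 with all). Its called genes kept their call in 1278 of 1470 values and changed sign in 0.

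Signs changed near 0. Bckdha in Ago2KO_empty was at -0.0021 with RLE, -0.0020 with DESeq2, -0.0093 with no filter and -0.079 to 0.035 without a library. The Trim71 difference of Bcat1 was -0.0081 with RLE, -0.0076 with DESeq2, -0.0032 with CPM above 1 and -0.043 to 0.023 without a library. For Ago2KO minus T6B_WT, Bckdhb was at -0.0020 with RLE, -0.0018 with DESeq2 and -0.030 to 0.052 without a library, Bckdha at -0.025 to 0.13 and Bcat1 at -0.041 to 0.018. Without a library Dbt in T6B_WT was at -0.0022 to 0.089, the Ago2 differences of Bcat1 and Bcat2 at -0.0058 to 0.082 and -0.0058 to 0.15, and the Trim71 difference of Auh at -0.088 to 0.042.

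Whether the replicate numbers in the labels pair the libraries was not settled by their correlations. Deviations of libraries with the same number correlated by -0.65 to 0.66 in Experiment 1, over 0.1 in 4 of 9 pairs, and by -0.40 to 0.36 in Experiment 2, over 0.1 in 6 of 18. With the replicate number as a block, of the calls of the 9 genes only those of Auh in T6B_WT (0.23, adjusted p = 0.0609) and Mccc2 in Trim71KO_empty (-0.24, adjusted p = 0.0559) were lost. The SE of Mccc1 was 0.19 in Experiment 2 and 0.08 in Experiment 1, so Mccc1 was measured less precisely in Experiment 2. Its SD there was 6.02 CPM in Ago2KO_empty, 1.01 in T6B_MUT, 2.28 in T6B_WT and 1.46 in Trim71KO_empty. The groups of an experiment share an estimate of the spread in the fit.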
